A study of Equus caballus with 8 samples.

Results

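Glypicans and syndecans are the 2 families of cell-surface proteoglycans that carry heparan sulfate, long sulfated sugar chains to which growth factors, chemokines, morphogens and matrix proteins bind. Glypicans are held to the outer leaflet of the membrane by a glycosylphosphatidylinositol (GPI) anchor, whereas syndecans cross the membrane and have a short cytoplasmic tail that meets PDZ proteins and the actin cytoskeleton. On fibroblasts and marrow stromal cells both families act as co-receptors for fibroblast growth factors (FGFs), Wnts and hedgehogs, and syndecans also work with integrins in adhesion to fibronectin. The genes were chosen by family name, with the results of treated against untreated cells in the same table already known. They were 9 of the 15266 named genes in the deposited table, namely the 5 glypicans GPC1, GPC2, GPC3, GPC4 and GPC6 and the 4 syndecans SDC1, SDC2, SDC3 and SDC4. GPC5 was not analysed here.

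The cells were equine BM-MSCs, mesenchymal stem cells that grow out of bone marrow as an adherent stromal layer. They came from 4 animals (horses D, J, L and W) in a study whose horses were 6 to 16 years old. The marrow of each horse was divided between a culture without added TGF-β2, here untreated, and a culture that received 1 ng/ml human recombinant TGF-β2, so that each group had 4 libraries and each horse was in both. Both groups grew in low-glucose medium with 10% fetal bovine serum and, per the study's methods, 1 ng/ml basic fibroblast growth factor (FGF2 protein), itself a heparan sulfate ligand. The labels put the treatment from isolation until passage 3 or 4, and poly(A)-selected RNA was sequenced from passaged primary cells of outbred animals.

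The libraries held 39184554 to 57228675 reads in named genes, and 3 reads, the floor used here, came to 2.02 to 3.60 normalized counts. That floor covers counting error only. All 7 stromal markers of the list used were present in all 8 libraries, but not at like levels in the groups. ITGB1 was at 70290 to 85751 normalized counts untreated and 116122 to 184270 treated, whereas THY1 was lower in the treated cells of every horse (24238 to 199815 untreated, 7344 to 37850 treated), and ENG (8571 to 10761 untreated, 5881 to 9059 treated) and PDGFRB (23049 to 45945 untreated, 19681 to 23407 treated) were also lower in each horse. Of the other cell types, 4 of 6 leukocyte markers had a row, with a summed level of 66.1 to 462 untreated and 29.8 to 243 treated, the endothelial marker CDH5 stood at 6.09 to 23.8, and no haematopoietic progenitor or epithelial marker of the lists used had a row. FN1, COL1A1 and COL1A2 together took 0.881% to 6.27% of untreated and 10.3% to 14.4% of treated values, and dividing by the library totals instead moved the median gene to a log2 fold change of −0.30, from 0.0055. The untreated library of horse J stood apart, being the lowest or highest untreated library for 70.8% of genes, against 39.9% to 46.7% for the others. It also had the highest level of the macrophage marker CD68, 2437 normalized counts against 451 to 740 in the other untreated libraries and 362 to 685 in the treated ones. The other macrophage markers did not go with CD68 there, since untreated J had the lowest untreated CD163 (0, others 7.83 to 45.7) and CSF1R (1.35, others 7.83 to 147). Of the leukocyte markers, untreated J had the highest untreated PTPRC (110, others 1.74 to 41.5) and ITGAL (53.9, others 21.3 to 40.5). ITGB2 and LAPTM5 were highest in untreated L. Values without horse J are given beside the results on the 9 genes, and what its difference contributes to them was not tested. In whole cultures, fewer cells of one kind and less RNA per cell cannot be told apart.

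After TGF-β2, GPC3, SDC3 and SDC4 transcripts fell in each of the 4 horses and none of the 9 genes was called higher. A gene was called where the adjusted p was under 0.05 and the absolute log2 fold change over 1 in limma, without a horse term, over 14907 genes. All 9 genes passed the filter on low values. Of all genes tested 5.59% were called higher and 5.87% lower (834 and 875 genes, but 587 and 1538 with equal library totals), and because the treated against untreated values were known when the genes were chosen, these shares are printed for reference and the calls on the 9 genes are description. At an unadjusted p under 0.05, 1 of the 9 (GPC1) was higher and 3 were lower, and limma with the horse as a block, DESeq2, DESeq2 with the horse and edgeR gave the same counts at both thresholds. The share of all genes at this unadjusted threshold for treatment is not given here. Counts at that threshold, here and in the lists below, are therefore description only. The block called 6.83% of all genes higher and 7.31% lower. In 3 of the 9 genes the treated and untreated values did not overlap, as in 27.8% of all genes. The median log2 fold change of the 9 was −0.07, with 5 negative and 4 positive, and that of all genes tested was 0.0055.

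**Figure D1:**
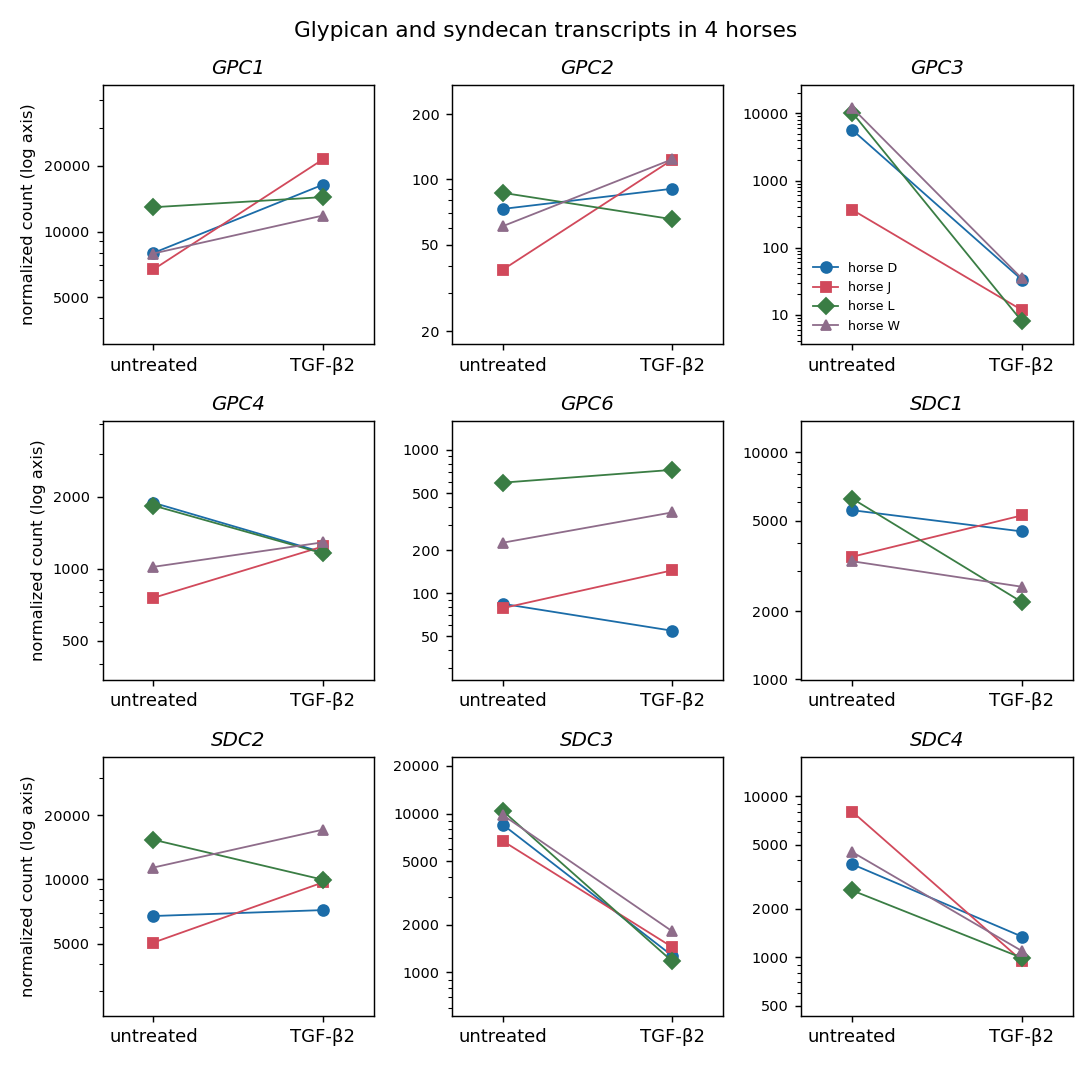
Normalized counts (log axis, a separate range for each gene) of the 9 genes in cells grown without and with TGF-β2, with 1 point per library and a line joining the libraries of each of the 4 horses. GPC3, SDC3 and SDC4 went down in every horse without overlap of the groups, GPC1 went up in every horse with overlap, and the lines of the other 5 genes ran in both directions.

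Among the glypicans, GPC3 had by far the widest difference between the groups. GPC3 is the glypican mutated in Simpson-Golabi-Behmel overgrowth syndrome, and it is known to bind hedgehog and Wnt proteins. Untreated BM-MSCs of horses D, J, L and W held 5672, 365, 10246 and 12081 normalized counts (7091 ± 5232, SD, n = 4). After TGF-β2 the same horses held 33.4, 11.8, 8.05 and 34.8 (22.0 ± 14.1, SD, n = 4), which were 28, 11, 7 and 29 reads. Every treated library was far under the lowest untreated one, and untreated J, the lowest, was itself far under the other 3. GPC3 was called lower, with a log2 fold change of −7.69 ± 1.09 (SE), the second lowest of all genes tested. The ratio of untreated to treated in the single horses was 170 in D, 31.0 in J, 1273 in L and 347 in W, and that of the group means was 322. The difference was thus smallest in the horse with the lowest untreated level, and without horse J the log2 fold change was −8.64. With treated reads this few, counting error adds to the spread between horses in the treated group.

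GPC1 is the glypican found in most tissues and a co-receptor for FGF2 and other heparin-binding factors. Its untreated values were 7969, 6694, 12927 and 7923 normalized counts (8878 ± 2763), and its treated values 16394, 21421, 14386 and 11834 (16009 ± 4062). Treated cells were higher in 4 of 4 horses, yet treated W lay below untreated L, so the groups overlapped. The log2 fold change of 0.86 ± 0.24 (SE) stayed short of the fold threshold, and GPC1 was not called. The log2 change was 1.04 in horse D, 1.68 in J, 0.15 in L and 0.58 in W. Without horse L it was 1.10 and GPC1 was called, also with the block, whereas without horse J it was 0.59, and with equal library totals 0.55.

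GPC4, a glypican of many embryonic and stromal cells and the chromosomal neighbour of GPC3, held 1885, 755, 1835 and 1018 normalized counts untreated (1373 ± 572) and 1170, 1238, 1159 and 1288 treated (1213 ± 60.6). The treated horses lay close together, between the high untreated horses D and L and the low untreated horses J and W. GPC4 was not called, with a log2 fold change of −0.07 ± 0.29 that took the sign of the horses included, being −0.34 without horse J, 0.13 without D and 0.12 without L. GPC6, a glypican of growth plate cartilage and mesenchyme, held 84.4, 78.8, 591 and 225 untreated (245 ± 240) and 54.8, 145, 725 and 366 treated (323 ± 299). The spread between horses was wider than the gap between the group means, with L highest and W next in both groups. The log2 fold change of 0.31 ± 0.90 was not called (0.13 without horse J), and its SE shrank to 0.28 once the horse was in the model. GPC2, known mainly from the developing nervous system, had 57 to 115 reads per library. It held 73.1, 38.4, 86.7 and 60.9 untreated (64.8 ± 20.5) and 90.5, 123, 65.5 and 124 treated (101 ± 28.1), with higher treated values in D, J and W and a lower one in L. Its log2 fold change of 0.64 ± 0.33 was not called and was 0.31 without horse J.

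Among the syndecans, SDC3 and SDC4 were called lower. SDC3, a syndecan best known from nerve, muscle and cartilage precursors, held 8528, 6727, 10413 and 9804 normalized counts untreated (8868 ± 1629) and 1273, 1443, 1174 and 1815 treated (1426 ± 282). The gap between the groups was much wider than either group, and no treated library came near an untreated one. The log2 fold change was −2.64 ± 0.18 (SE), the smallest SE of the 9 genes, and −2.77 without horse J. Untreated cells held 6.70 times the treated level in D, 4.66 times in J, 8.87 times in L and 5.40 times in W. The log2 changes of SDC3 had an SD over horses of 0.40, where the median gene had 0.313.

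SDC4, the syndecan of focal adhesions that binds and activates protein kinase C alpha, held 3791, 8038, 2605 and 4512 untreated (4737 ± 2337) and 1348, 956, 994 and 1098 treated (1099 ± 177). Treated libraries were all below the lowest untreated one, and untreated J was the highest, the reverse of its place for most of the other genes. The log2 fold change was −2.0 ± 0.31 (SE), and −1.64 without horse J, whose untreated level was 8.41 times its treated level against 2.81 in D, 2.62 in L and 4.11 in W. SDC4 was called with any 1 horse left out of the model without a horse term. With the horse as a block and horse W left out, the log2 fold change of −1.98 was no longer called.

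SDC1 and SDC2 were not called. SDC1, the chief syndecan of epithelia and plasma cells, held 5549, 3465, 6238 and 3310 untreated (4640 ± 1476) and 4477, 5262, 2192 and 2558 treated (3622 ± 1483). Treated values were lower in D, L and W and higher in J, with a log2 fold change of −0.40 ± 0.33 that was −0.73 without horse J and −0.03 without L. SDC2, the syndecan of mesenchymal cells and fibroblasts, held 6741, 5062, 15353 and 11372 untreated (9632 ± 4655) and 7185, 9679, 9976 and 17104 treated (10986 ± 4267). Its treated values were higher in D, J and W and lower in L. The log2 fold change of 0.25 ± 0.38 was 0.02 without horse J and turned to −0.06 with equal library totals.

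**Figure D2:**
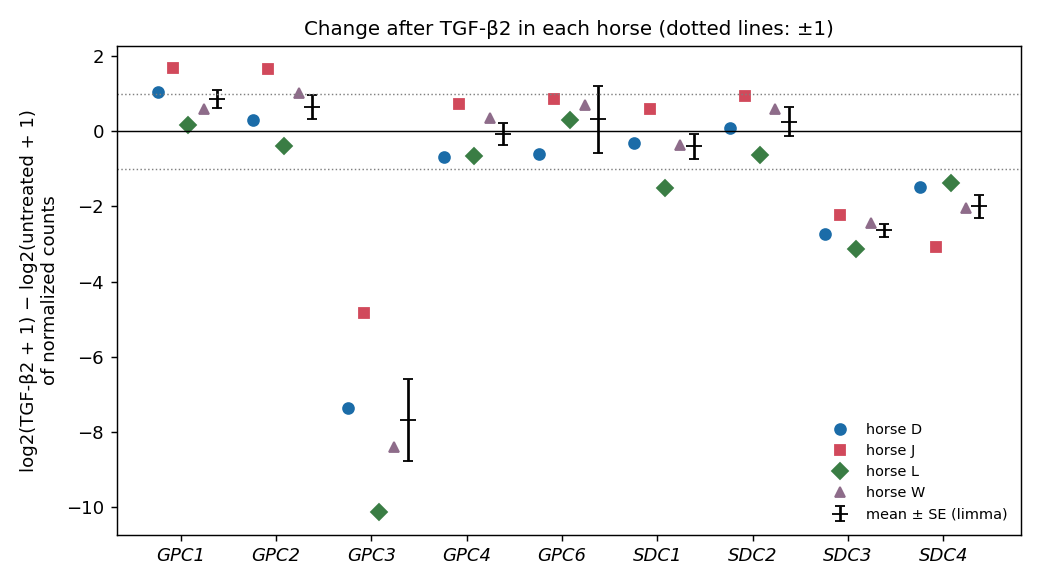
Log2 change from untreated to TGF-β2-treated, as log2(normalized count + 1), for each gene in each horse (coloured points), with the limma mean ± SE in black and dotted lines at ±1. All 4 horses lay below −1 for GPC3, SDC3 and SDC4, and in each of the other 6 genes horse J had the highest value.

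Horse J took the same place in several genes. In the untreated group it was the lowest library for 7 of the 9 genes, against 35.8% of all genes, and the exceptions were SDC1, where W was lowest, and SDC4. In all 6 genes that were not called it also had the highest log2 change of the 4 horses, as in 32.7% of all genes. Horse L had the lowest log2 change in 4 of those 6, as in 24.4% of all genes. Horse D was lowest for GPC4 and GPC6, as in 20.7% of all genes. These genes share their libraries, so they are not separate observations of horse J.

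Differences between horses were tested with the F test of the horse terms in the limma model with treatment, a measure that did not enter the choice of the genes. None of the 9 was called at an adjusted p under 0.05, and 0.322% of all genes were. At an unadjusted p under 0.05 there was 1 of the 9, GPC6, against 21.8% of all genes, and edgeR gave the same counts of the 9. For GPC6 the adjusted p was 0.0793 in limma and 0.0834 in edgeR. The highest horse held 7.50 times the lowest in untreated cells and 13.2 times in treated cells. The test was added after the values had been seen.

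The make-up of each family changed with the called genes. GPC3 made up 34.3% ± 21.7 (SD, n = 4) of glypican normalized counts in untreated cells, from 4.60% in J to 56.7% in W, and 0.136% ± 0.103 in treated cells. GPC1 made up 55.7% ± 20.2 untreated, from 37.2% to 84.4%, and 90.1% ± 3.26 treated, from 86.7% to 93.4%. The summed glypican level was 17652 ± 7665 untreated and 17668 ± 3903 treated, a difference far within the spread between horses. The share of SDC3 among syndecans went from 31.9% ± 2.81 to 8.37% ± 0.383, and that of SDC4 from 18.3% ± 11.5 to 6.69% ± 2.03, where treated D (9.44%) lay above untreated L (7.53%). SDC2, whose own level was not called, went from 33.2% ± 10.4 to 62.9% ± 11.8, with no overlap between 21.7% to 44.4% untreated and 50.3% to 75.8% treated. The summed syndecan level was 27877 ± 5109 untreated and 17134 ± 3899 treated. Counts were not scaled to transcript length, so a share can be compared between groups for the same gene but not between genes.

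**Figure D3:**
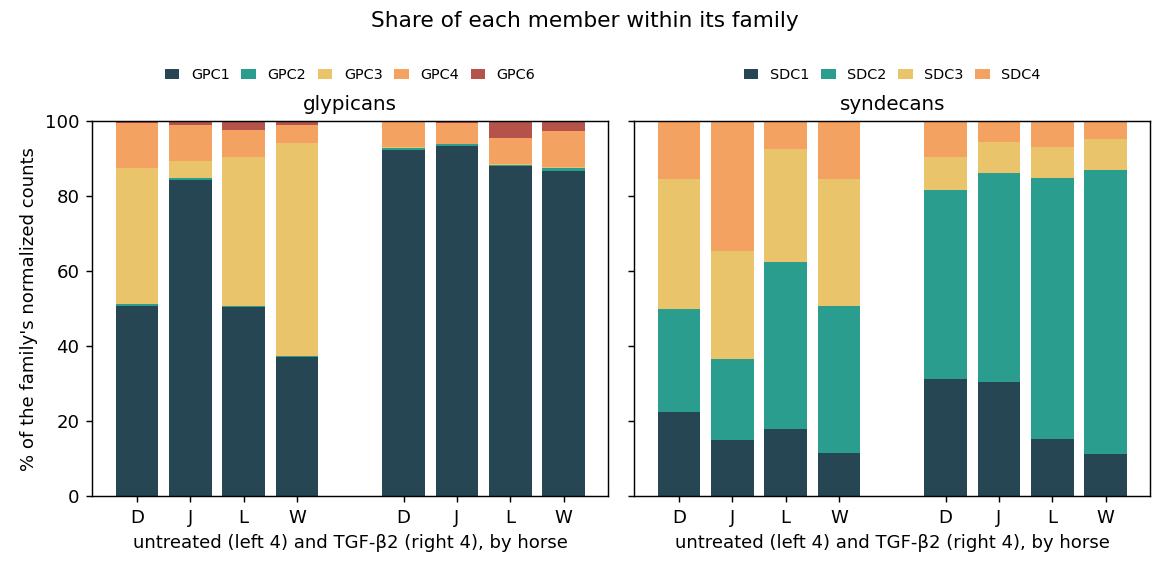
Share of each gene in the summed normalized counts of its family (%, stacked bars from 0 to 100), glypicans on the left and syndecans on the right, with 1 bar per library, the 4 untreated libraries before the 4 TGF-β2-treated ones. GPC3 was too thin to see in the treated bars (0.136% ± 0.103) and GPC1 filled 86.7% to 93.4% of them, while SDC3 and SDC4 shrank and SDC2 took 50.3% to 75.8%.

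The genes whose levels ran most closely with each of the called 3 over the 8 libraries were found by Pearson's r of log2(normalized count + 1). With GPC3 they were SCARA5 (r = 0.997), a ferritin receptor with a log2 fold change of −8.81, BROX (0.990) and RASA2 (0.989). The treated mean of SCARA5 was 4.41 normalized counts, near the floor (3.21 to 3.60 in treated libraries), so the size of its fold change is uncertain. With SDC3 they were MEGF6 (0.993), IRF2BP2 (0.988) and the antioxidant response factor NFE2L2 (0.988). With SDC4 they were the succinate dehydrogenase subunit SDHD (0.991), KHNYN (0.990) and DNAJC6 (0.989). A high r did not mean a like size of change, since BROX had a log2 fold change of only −0.42 beside −7.69 for GPC3. Of the other genes, GPC1 ran closely with CNOT11 (0.983) and CCDC97 (0.981), GPC6 with LOC111774979 (0.975), DOCK3 (0.966) and LOC111775222 (0.956), and SDC2 with VOPP1 (0.959), TRIM36 (0.952) and LOC100067882 (0.951). GPC2 ran with SPAST (0.964), SPON1 (0.942) and RNF146 (0.938), GPC4 with KLF9 (0.936), SPTB (0.932) and FOSL2 (0.926), and SDC1 with ACER3 (0.965), LOC100059554 (0.954) and MKRN2 (0.949). All of these r are over the same 8 libraries, which share treatment and horse.

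All 9 genes were found in the RefSeq annotation of the TB-T2T horse assembly, which is not the EquCab 3.0 build of the files and was used for gene order only. GPC3 and GPC4 lie side by side there, and so do GPC6 and GPC5. GPC3 was called lower while neither neighbour was, GPC4 at −0.07 and CCDC160 at −0.24 ± 0.35 on the log2 scale (adjusted p = 0.662, limma). SDC3 lies beside the leukocyte gene LAPTM5 (−2.22 ± 1.45), which was not called in limma without a horse term (adjusted p = 0.306) but was called lower with the block (0.0259), and whose highest library held 270.4 normalized counts. Matrilin genes lie 2 places from 3 of the syndecans, as near SDC1, where MATN3 held 26.1 ± 23.8 untreated and 7.36 ± 5.29 treated (adjusted p = 0.115 in limma, and 0.0179 with the block, where its log2 fold change of −1.60 was called), and near SDC4, where MATN4 held 74.7 ± 40.4 and 43.5 ± 20.3 (adjusted p = 0.310 in limma, and 0.0415 with the block). In that annotation no member overlapped a protein-coding gene. GPC1 overlapped the microRNA gene MIR149, and GPC6 and SDC4 each overlapped 1 uncharacterized non-coding gene, none of which had a row.

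The genes that build, trim, bind and read heparan sulfate were followed in the same table, as 110 genes in 6 lists drawn up with earlier results of these data known. Of these, 97 had a row and 95 were tested, and 17 were called higher and 12 lower (17 and 13 with the horse as a block, 14 and 16 with equal library totals), where 5.59% and 5.87% of all genes were. Their median log2 fold change was 0.10. HS3ST1 and PDGFB, both among those called higher, were under 10 normalized counts in every untreated library, so they passed the filter only by being higher in treated cells. Without these, 15 of 93 were called higher and 12 lower. In the lists below, calls lost or gained without a horse are from limma without a horse term, which leaves the pairing unused.

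Chain synthesis, the enzymes that put heparan sulfate onto glypican and syndecan cores, had 3 of 21 tested genes called higher and 1 lower (2 and 1 of 20 without HS3ST1), with a median log2 fold change of 0.12. DESeq2 called 3 higher and 2 lower, and DESeq2 with the horse called 3 higher and 3 lower. At an unadjusted p under 0.05 there were 5 higher and 3 lower in limma. XYLT1, which starts the chain by adding xylose to the core protein, rose from 2177 ± 879 to 6713 ± 2748 normalized counts (log2 fold change 1.63 ± 0.36 SE, adjusted p = 0.0153, limma). EXT1, a subunit of the polymerase that lengthens the chain, rose from 5142 ± 743 to 14208 ± 1866 (1.47 ± 0.14, adjusted p = 7.47e-04, limma), while its partner EXT2 was at 8840 ± 1220 and 9449 ± 1231 and was not called (0.10 ± 0.13). EXTL2, a transferase that can end the growing chain, fell from 993 ± 219 to 480 ± 77.2 (−1.03 ± 0.20, adjusted p = 0.00991, limma). The sulfotransferase HS3ST1, which makes the antithrombin-binding form of the chain, had 0, 3, 4 and 1 reads in untreated D, J, L and W and 31.0 to 51.7 normalized counts in the treated cells, and it passed the filter only through the treated group. HS3ST5, of the same sulfotransferase group, ran the other way and was listed at 0 in all treated libraries, with 60.9, 4.04, 46.2 and 79.1 untreated, and did not pass the filter. NDST1, which begins sulfation of the chain, was not called (0.53 ± 0.25). XYLT1 was not called without horse D, L or W in turn (adjusted p 0.0511 to 0.0822, limma without a horse term), nor EXTL2 without D or W (0.0577 to 0.0793). With the block and all horses both were called (adjusted p = 0.00153 for XYLT1 and 0.00303 for EXTL2, limma).

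Chain editing and release held enzymes that trim the chains or cut the cores from the cell, and the metalloproteinase inhibitor TIMP3. Of its 13 tested genes 3 were called lower and none higher, with a median of −0.54. No other tool run called a gene of this list higher, and at an unadjusted p under 0.05 there were 2 higher and 6 lower in limma. Besides the 3 called, the lower ones were SULF2 (−0.96, adjusted p = 0.0240, limma), ADAM10 (−0.51, 0.0375) and TIMP3 (−1.58, 0.0774). SULF2 and ADAM10 were lower in 4 of 4 horses without overlap of the groups but short of the fold threshold. The 2 higher were FURIN (0.67, adjusted p = 0.0121, limma) and ADAMTS4 (0.68, 0.117). NOTUM, a lipase that removes lipid from Wnt proteins and has been linked to cleavage of the glypican anchor, fell from 2632 ± 840 to 559 ± 272 (−2.31 ± 0.36, adjusted p = 0.00412, limma). HPSE, heparanase, which cuts the chain, fell from 45.1 ± 17.0 to 8.71 ± 7.32 (−2.44, adjusted p = 0.0205, limma). The treated libraries D, J, L and W held only 2, 7, 5 and 16 reads of HPSE, with D under the floor. Its log2 fold change was −2.54 with a pseudocount of 0.5 and −1.92 with 5. MMP9, a protease that can shed syndecans, fell from 2913 ± 950 to 835 ± 760 (−2.15, adjusted p = 0.0281, limma, but 0.0601 in edgeR). HPSE lost its call without J or L (0.0607 to 0.103) and MMP9 without D, L or W (0.108 to 0.118). The uncalled genes of this list with the highest means were the proteases MMP2 (−0.17 ± 0.29) and MMP14 (−0.55 ± 0.37). Without horse J, MMP14 was called (−1.04, adjusted p = 0.0285, limma).

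Of the syndecan partners, the integrins and cytoplasmic proteins that work with syndecans, 4 of 16 tested genes were called higher and none lower, with a median of 0.20, in cells whose SDC3 and SDC4 were called lower. No other tool run called one lower, and at an unadjusted p under 0.05 there were 6 higher and 5 lower in limma. The 5 lower were all cytoplasmic proteins, SDCBP (−0.61), EZR (−0.59), ARF6 (−0.28), PDCD6IP (−0.26) and GIPC1 (−0.25). Each was lower in 4 of 4 horses but short of the fold threshold and over 0.05 by adjusted p (0.0657 to 0.137, limma). ITGA5, the alpha chain of the fibronectin receptor, rose from 17936 ± 2590 to 99379 ± 20586 (2.46, adjusted p = 2.90e-04, limma) and ITGB3 from 1432 ± 353 to 9180 ± 1150 (2.71, adjusted p = 2.38e-04, limma). ITGAV rose from 8888 ± 3031 to 21008 ± 2640 (1.32, adjusted p = 0.0140, limma) and PRKCA, the kinase bound by SDC4, from 429 ± 163 to 848 ± 142 (1.05, adjusted p = 0.0305, limma). ITGAV lost its call without D or W by the adjusted p (0.0611 and 0.0702) and without J by the fold (0.97), and PRKCA without D or W (0.0838 and 0.161) and, at 0.98, in DESeq2 and edgeR and, at 0.74, with equal totals. ITGB1 (0.91 ± 0.19, adjusted p = 0.0123, limma) was short of the fold threshold, which it passed without horse J (1.06), and ITGB5 was at 0.13 ± 0.31.

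The heparan sulfate ligands moved in both directions, with 8 of 23 tested genes called higher and 5 lower (7 and 6 with the block, 7 and 5 of 22 without PDGFB) and a median of 0.29. The FGFs were divided, since FGF1 rose from 110 ± 35.4 to 778 ± 189 (2.84 ± 0.27, adjusted p = 7.69e-04, limma) while FGF2 fell from 297 ± 43.4 to 129 ± 14.4 (−1.19, adjusted p = 0.00303, limma) and FGF7 from 22843 ± 4445 to 6680 ± 2545 (−1.83, adjusted p = 0.00345, limma). HBEGF, the heparin-binding EGF-like growth factor, rose from 328 ± 178 to 2291 ± 596 (2.90, adjusted p = 0.00189, limma). HGF fell from 991 ± 235 to 39.2 ± 16.9 (−4.72, adjusted p = 3.23e-04, limma), the chemokine CXCL12 from 10481 ± 5803 to 355 ± 466 (−5.57, adjusted p = 0.00399, limma) and IGF2 from 35430 ± 17456 to 1338 ± 437 (−4.64, adjusted p = 7.47e-04, limma). PDGFB held 0.870, 0.673, 5.65 and 9.13 untreated and 78.6, 49.2, 239 and 86.5 treated, and it too passed the filter only through the treated group. The other ligands called higher were PDGFA (1.57), WNT5A (1.15) and the matrix proteins FN1 (3.30), THBS1 (2.38) and TNC (2.33), all of which lost the call without 1 or more horses, WNT5A without any of the 4 (0.0530 to 0.154), with the block (0.0661) and with equal totals. The adjusted p without a horse, where lost, was 0.0520 and 0.0960 for PDGFA (L and D), 0.0651 for FN1 (D), 0.0523 and 0.0711 for THBS1 (L and D) and 0.0555 to 0.0650 for TNC (D, L and W). VEGFA (0.24 ± 0.20) and SLIT2 (−0.52 ± 0.18) were not called. Within limma, SLIT3 was called with the block only (−2.42, adjusted p = 0.0586 without and 0.00309 with it). DESeq2 without the horse called 8 ligands higher and 6 lower.

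Among the receptors that signal beside heparan sulfate, 1 of 15 tested genes was called higher and 1 lower, with a median of 0.02. FGFR3 fell from 1769 ± 1355 to 151 ± 28.9 (−3.08, adjusted p = 0.0131, limma), and the Wnt co-receptor LRP5 rose from 710 ± 282 to 1686 ± 572 (1.26, adjusted p = 0.0250, limma). FGFR3 was not called without D, L or W (0.0576 to 0.0891), nor LRP5 without D or W (0.104 and 0.143) or with equal totals. FGFR1 and PTPRS, both at −0.33, were not called. Horse J alone was higher when treated for both (0.77 and 0.92 on the log2 scale), and without it they were at −0.69 (adjusted p = 0.0272, limma) and −0.74 (0.0181), still short of the fold threshold. PTPRF (1.20) was called by the block alone (adjusted p = 0.186 without and 0.0341 with it, limma). CD81 was lower in 4 of 4 horses without overlap of the groups but short of the fold threshold (−0.92 ± 0.15, adjusted p = 0.00439, limma).

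The other carriers of heparan sulfate or related chains set the glypicans and syndecans beside proteins of the matrix and of secretory granules, and 1 of 7 was called higher and 2 lower, with a median of 0.43. TGFBR3, betaglycan, the membrane proteoglycan that presents TGF-β2 to its receptors, held 13878, 4594, 6059 and 8005 untreated (8134 ± 4076) and fell to 164 ± 19.1 (−5.50 ± 0.31, adjusted p = 1.02e-04, limma). COL18A1, a basement membrane collagen with heparan sulfate chains, rose from 1601 ± 1249 to 5460 ± 1897 (2.08, adjusted p = 0.0380, limma, and 0.0649 in edgeR), and the granule proteoglycan SRGN fell from 4988 ± 2123 to 944 ± 1087 (−2.90, adjusted p = 0.0265, limma, and 0.0613 in edgeR). COL18A1 lost its call without any of the 4 horses (0.0613 to 0.128) and SRGN without D, L or W (0.0506 to 0.153). The basement membrane proteoglycan HSPG2 (0.67 ± 0.53) and CD44 (0.43 ± 0.19) were not called. Nor was the membrane carrier NRP1, named after its values were seen, which was higher in 4 of 4 horses without overlap of the groups (0.97 ± 0.22, adjusted p = 0.0181, limma).

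**Figure D4:**
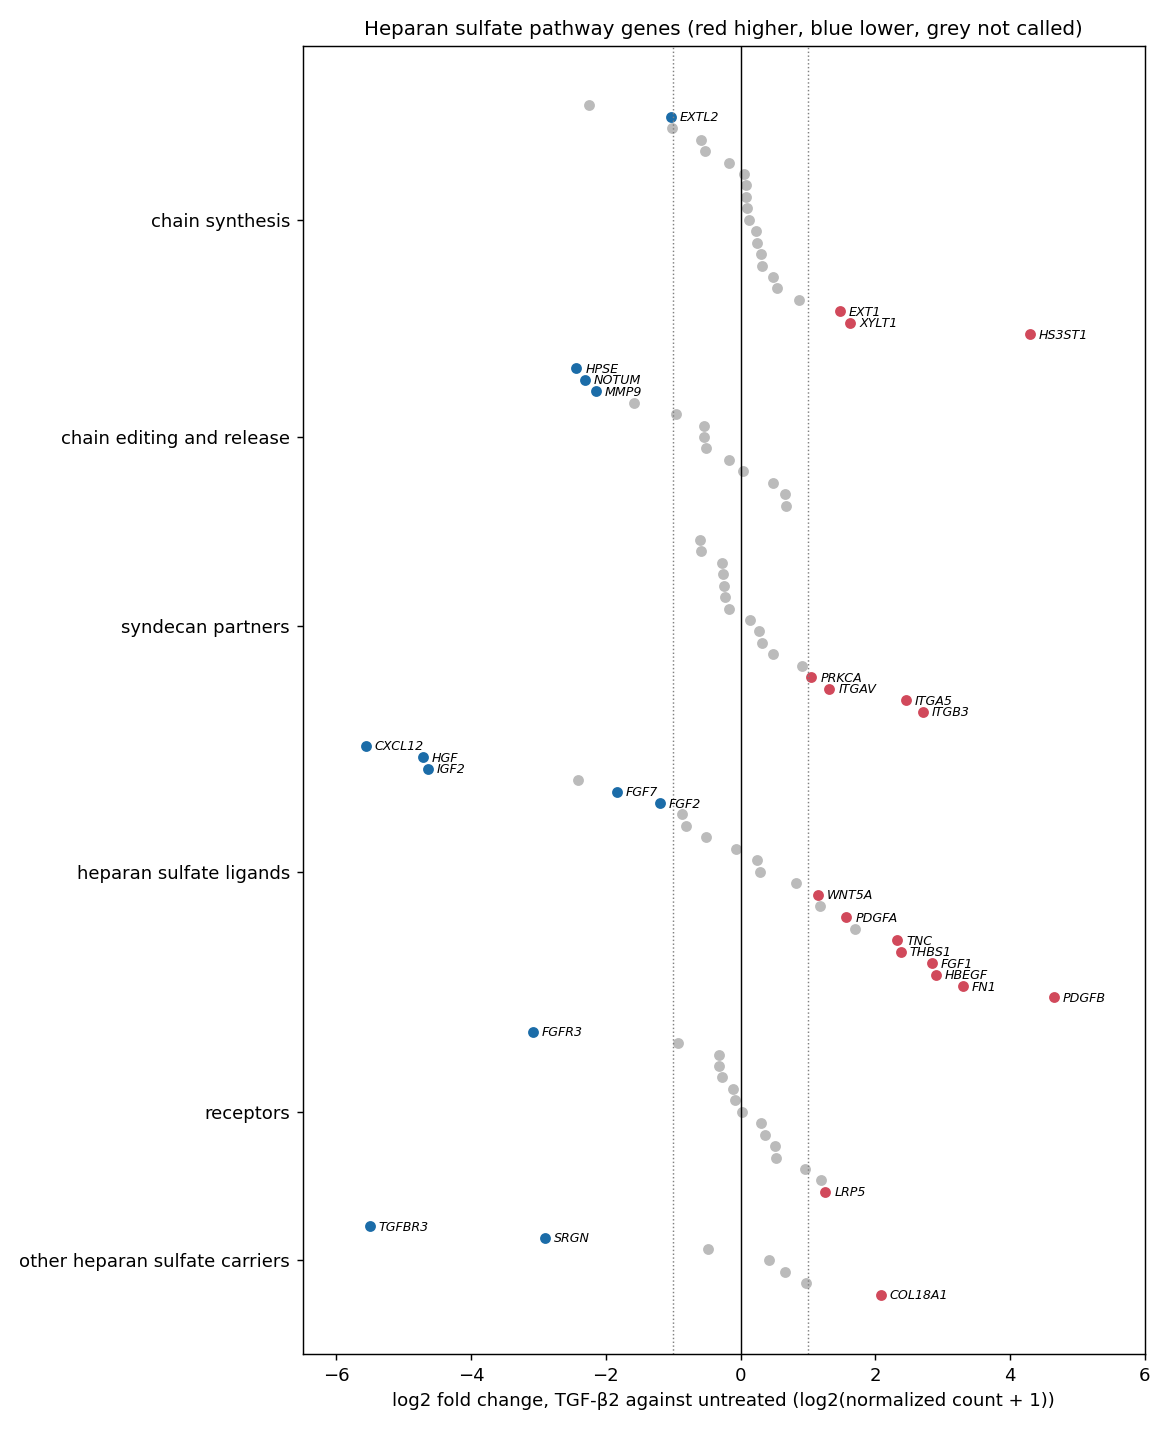
Log2 fold change, TGF-β2-treated against untreated, as log2(normalized count + 1), of the 95 tested heparan sulfate pathway genes in 6 lists, with genes called higher in red, called lower in blue and the rest in grey, and dotted lines at ±1. Syndecan partners called were all higher and chain editing and release genes called were all lower. The plotted values of HS3ST1, PDGFB and HPSE depend on the pseudocount. Some untreated libraries of HS3ST1 and PDGFB, and the treated library of horse D for HPSE, held fewer reads than the floor.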

How the data were processed

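RNA-seq was analysed from 8 libraries of equine BM-MSCs, 4 untreated and 4 treated with TGF-β2, paired by the horse letter in the sample labels. Per the submitters' processing notes, the authors used Trimmomatic 0.36, STAR 2.5.2b, featureCounts of Subread 1.5.2 and DESeq2, with EquCab 3.0. They deposited a signal table of normalized counts (reads per gene divided by a size factor per library) with 15267 rows, of which 1 named no gene and was left out (0.0281% to 0.0531% of values). Strandedness was not given in the sources used here. Dividing by what 1 read is worth in a library gave whole reads for 100% of values (tolerance 0.01 read), and these reads served for depth and count tests.

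Differences were tested by limma 3.58.1 (lmFit, then eBayes with its trend option; R 4.3.3). Values were log2-transformed after adding 1, genes under 10 normalized counts in more than 4 of the 8 libraries were dropped, and Benjamini-Hochberg adjustment ran over the 14907 kept. Calls required both an adjusted p under 0.05 and a log2 fold change beyond ±1. Fold changes on this scale understate those of low genes. The model had no horse term, since the study's methods name none. Same-horse libraries deviated together from their group means (r = 0.386 to 0.609 in 4 pairs). Between horses the mean r was −0.159, a value tied to the same-horse r by the centring and so no separate evidence. Given the same-horse r, the horse as a block was an alternative. The others were pseudocounts of 0.5 and 5, no filter, a filter at 50, equal totals, TMM, edgeR 4.0.16, DESeq2 1.42.0 (also with the horse) and each horse left out. The test of horses and the block with a horse left out were added after the values were seen, as were list counts without genes under 10 in every library of a group. Procedures were tested on simulated data.

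The members and lists were chosen with earlier results of these data known. Named were all members, every called gene of the 6 lists, the 2 uncalled genes of each list with the highest mean, and the 3 genes closest to each member by Pearson's r. SLIT3, PTPRF, NRP1, HS3ST5, CD81, SULF2, ADAM10, TIMP3, FURIN and ADAMTS4 were named after their values were seen. So were the syndecan partners lower at an unadjusted p under 0.05 and the chromosomal neighbours. Some genes covered by these rules are not reported here. Protein and transcript sequences were not used here.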

Additional observations from a re-analysis of the deposited data

Results flagged for a closer look

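In 7 of the 100 groups looked at (50 genes, 4 libraries each) the highest or lowest library was further from the rest than Dixon's criterion allows, where chance gives about 1 in 20. None was a glypican or syndecan. Horse J supplied 3 of them. Its untreated library held 4388 normalized counts of ITGAV against 9878 to 10940 in the other untreated libraries, and 7053 of TNC against 30142 to 34222. Its treated library held 1049 of CXCL12 against 50.6 to 170 in the other treated ones. Horse L also supplied 3, with 31.0 of HS3ST1 in treated cells against 49.2 to 51.7, and in untreated cells 21800 of ITGA5 against 16319 to 16987 and 1820 of SRGN against 5837 to 6346. Treated horse W held 21097 of PTPRS against 18041 to 18252.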

How the results depend on the processing

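Of 162 values of members under an alternative, 154 kept their direction and their side of the threshold, 1 lost a call (SDC4 with the block and without horse W), 2 gained one and 5 changed sign. Members called higher went from 0 to 1 (GPC1) without horse L, also with the horse as a block (range 0 to 1 over the horses left out), and 3 were called lower in every fit with all horses. GPC4 ran from −0.34 to 0.13 over the horses left out, with and without the block (0.13 without D, 0.12 without L), and SDC2 was −0.063 with equal totals. Of 571 values of named pathway genes, 515 held, 48 lost a call, 2 gained one and 6 changed sign. EXT2 (−0.22), ITGB5 (−0.18) and VEGFA (−0.068) changed sign with equal totals. Leaving out horses gave −0.016 to 0.17 for EXT2, −0.57 to 0.048 for MMP2 and −0.34 to 0.37 for ITGB5. Without 1 horse, in limma without a horse term, 718 to 1899 genes were called in all (1709 with all 4). Of the pathway genes, 7 to 16 were called higher (17) and 8 to 15 lower (12), and 14 of the 29 called were called in each such fit. With the block, leaving out 1 horse gave 13 to 18 pathway genes higher and 10 to 17 lower. The highest of these counts was without horse J, and the cause was not tested. The paired fit called 2108 genes, and the block ended the call of WNT5A and added SLIT3 and PTPRF. With 4 horses, and 7 to 29 reads of GPC3 per treated library, the fall in GPC3 ran from −8.64 to −6.87 on the log2 scale over the horses left out.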
